A study of Mus musculus with 9 samples.

Results

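The mitogen-activated protein kinase ERK is switched off in part by proteins whose genes it helps to induce, and 9 such feedback genes were examined in the mediobasal hypothalamus (MBH) of young mice. They are 4 genes of dual-specificity phosphatases (Dusp1, Dusp4, Dusp5 and Dusp6), 3 Sprouty genes (Spry1, Spry2 and Spry4) and 2 SPRED genes (Spred1 and Spred2). They were picked by name, as members of these families, at a time when earlier results of these data were known. All 9 were among the 15340 genes that passed a filter on low counts (a CPM, counts scaled to the library total, above 1 in at least 4 libraries). All 9 were also in the table of expression values deposited by the authors. Together they had 22 transcripts among the 119414 quantified.

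RNA sequencing had been performed on the MBH, the basal part of the hypothalamus with the arcuate nucleus, to ask how emulsifiers drunk by the mother affect the hypothalamus of her male offspring. All mice were wild-type C57Bl/6 males at postnatal day 21, at weaning. In the CTRL group (n = 4) the dams drank plain water, and in the Emul group (n = 5) they drank water with 1% carboxymethylcellulose and 1% polysorbate 80, both emulsifiers used in processed food. The study's methods give 4 control and 5 emulsifier-treated litters for this sequencing, but the labels tie no library to a litter. The p-values therefore set the group difference only against the spread between these libraries, part of which may be technical.

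In the ERK cascade, ligand-bound receptor tyrosine kinases load Ras with GTP, Ras engages RAF kinases, and these activate MEK and then ERK. Dual-specificity phosphatases remove the phosphates from the threonine and tyrosine of active MAP kinases, Sprouty proteins act between the receptor and RAF, and SPRED proteins bring neurofibromin, which turns Ras off, to the membrane. In the hypothalamus the cascade is used by growth factor receptors and by the leptin and insulin receptors, and it is also driven by neuronal activity.

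Between 28245360 (CTRL 3) and 46067534 estimated counts were obtained per library. Markers of MBH neurons, such as Pomc, Agrp and Npy, summed to 495 to 536 TPM (a level corrected for transcript length and library total) in CTRL and to 439 to 668 TPM in Emul, and 0 of the 8 tested had an unadjusted p under 0.05. Of 8 general neuronal markers, 5 were higher and 1 was lower at that level, with sums of 2631 to 2805 TPM in CTRL and 2642 to 2774 TPM in Emul. For comparison, 6.84% of all genes tested were higher and 8.99% lower at that level. Markers of the neighbouring suprachiasmatic nucleus summed to 28.0 to 40.8 TPM in CTRL and 15.6 to 34.5 TPM in Emul, and those of the thalamus to 304 to 380 TPM and 320 to 442 TPM. At an unadjusted p under 0.05, 1 of 4 tested suprachiasmatic markers was lower and 0 were higher. For the thalamus, 1 of 5 was higher and 0 were lower. The 13 mitochondrially encoded protein genes took 4.51% to 5.52% of the counts in CTRL and 5.71% to 6.75% in Emul, without overlap. Summed astrocyte markers were at 2004 to 2085 TPM in CTRL and 1747 to 1957 TPM in Emul, and 1 of the 7 was lower at an unadjusted p under 0.05. Those of oligodendrocyte precursors were at 434 to 514 TPM in CTRL and 385 to 456 TPM in Emul, and 1 of the 7 was lower and 0 were higher at that level. All these TPM sums carry the slightly lower TPM of genes in general in Emul, described below. Summed oligodendrocyte markers were at 12367 to 15570 TPM in CTRL and 9258 to 12943 TPM in Emul, and 7 of the 8 were lower in Emul at an unadjusted p under 0.05. In a piece of tissue, fewer cells of a type and less RNA per cell cannot be told apart.

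The 9 genes differed widely in level. Compared as TPM, Spred1 stood first in CTRL at 57.0 ± 2.81 (SD, n = 4) and Spred2 followed at 32.1 ± 0.539. Dusp1 came next at 22.1 ± 2.02 TPM, ahead of Spry2 at 14.8 ± 0.541 and Dusp6 at 13.7 ± 0.523. Lower levels were found for Spry1 (9.23 ± 0.335 TPM), Spry4 (7.73 ± 0.626 TPM), Dusp4 (5.66 ± 1.32 TPM) and Dusp5 (1.83 ± 0.285 TPM). In CTRL no 2 genes next to each other in this order overlapped in range.

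In Emul, Spred1 (54.9 ± 3.68 TPM, SD, n = 5), Spred2 (29.5 ± 1.23 TPM) and Dusp1 (19.2 ± 4.15 TPM) kept the first 3 ranks. Dusp6 stood at 14.7 ± 1.15 TPM and Spry2 at 14.1 ± 1.12 TPM, so they changed places, but their ranges overlapped, as did those of Dusp1 and Dusp6. Spry1 (8.58 ± 0.571 TPM), Spry4 (5.98 ± 0.436 TPM), Dusp4 (3.76 ± 0.267 TPM) and Dusp5 (1.75 ± 0.426 TPM) filled the last 4 ranks as in CTRL. TPM values were on the whole slightly lower in Emul, with a median difference of -0.10 on the log2 scale over the genes tested. This shift is absent from the scaled values used below, in which the median log2 fold change of all genes was 0.0015.

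**Figure D1:**
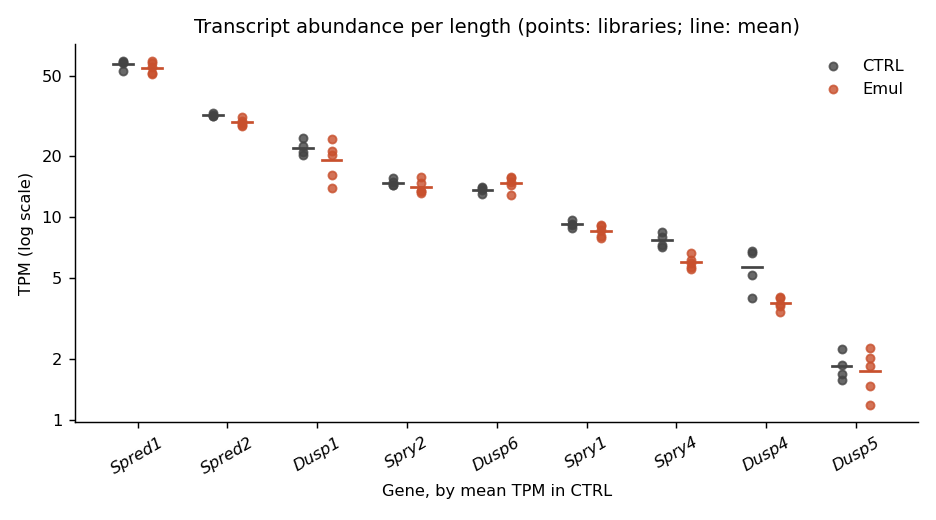
Level of each of the 9 genes in TPM (log axis) in every library, with CTRL and Emul points side by side and a line at the group mean. Spred1 lies at about 55 TPM and Dusp5 below 3 TPM, with the other genes spread between them in nearly the same order in both groups.

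Emul was compared with CTRL on log2 CPM, with library sizes scaled by TMM (trimmed mean of M-values) and with limma-voom fitted to all 15340 genes. Dusp4 and Spry4 were lower in Emul at an unadjusted p under 0.05, and 0 of the 9 genes were higher at that level. Neither passed after Benjamini-Hochberg adjustment over all genes tested, and of the other tools tried only DESeq2 gave Dusp4 an adjusted p under 0.05, at 0.0462. Over all genes, 8.99% were lower at an unadjusted p under 0.05 and 6.84% were higher, while 0.117% (18 genes) passed an adjusted p of 0.05. Among the 9 genes, 2 (22.2%) were lower, a share above 8.99% that rests on Dusp4 and Spry4 alone. The median log2 fold change of the 9 genes was -0.01. For 0 of the 9 genes did the ranges of the groups separate, whereas 6.60% of all genes had separate ranges. A cutoff of an unadjusted p under 0.05 with a change above 1.5-fold was passed by 72 genes (0.469%), none of them among the 9. The study's methods name a p-value for this cutoff and a figure legend an FDR, so the unadjusted reading is a choice made here.

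**Figure D2:**
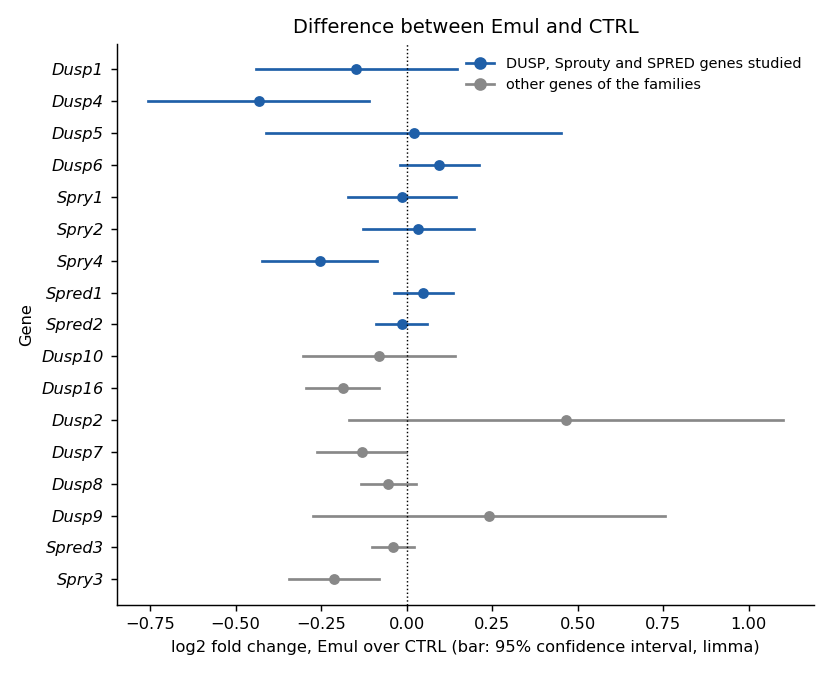
Difference between Emul and CTRL as a log2 fold change with its 95% confidence interval from limma-voom. The 9 genes are in blue, and other phosphatase, Sprouty and SPRED genes, described further below, are in grey. Among the 9 genes, the intervals of Dusp4 (-0.76 to -0.11) and Spry4 (-0.42 to -0.09) lie below 0, and those of the other 7 include 0. Among the grey genes, those of Dusp7 (-0.26 to -0.0016), Dusp16 (-0.29 to -0.08) and Spry3 (-0.34 to -0.08) lie below 0, and the rest include 0.

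Dusp4 (chr8:34807297-34819894, + strand, mm10) encodes a nuclear phosphatase of ERK and JNK. In CTRL 1 to 4 its log2 CPM was 3.18, 2.78, 3.15 and 2.45, and in Emul 1 to 5 it was 2.53, 2.60, 2.42, 2.23 and 2.37. CTRL 1 to 3 lay above every Emul library, while CTRL 4 lay among them. The log2 fold change was -0.43 (SE 0.149), with an unadjusted p of 0.0129 and an adjusted p of 0.202 by limma-voom. This is a level 1.35-fold lower in Emul. The exact permutation test of the difference in mean log2 CPM gave a two-sided p of 0.0317, where the smallest p these 9 libraries allow is 0.0079. CTRL varied more (SD 0.347, n = 4) than Emul (SD 0.143, n = 5), and with each library left out in turn the log2 fold change ranged from -0.60 (without CTRL 4) to -0.33 (without CTRL 1). Only 185 to 344 counts per library lay on this gene.

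Dusp1 (chr17:26505590-26562128, - strand) is an immediate early gene whose product acts on p38 and JNK as well as on ERK. Its log2 CPM was 4.42, 4.16, 4.08 and 4.26 in CTRL 1 to 4, and 4.43, 4.30, 4.21, 3.82 and 3.70 in Emul 1 to 5. Emul 1 to 3 lay within or just above the CTRL range, and Emul 4 and Emul 5 lay below it. The log2 fold change was -0.15 (SE 0.135, 95% confidence interval -0.44 to 0.15), and the adjusted p was 0.631 by limma-voom. The annotated gene runs into Ergic1 on the other strand. The study's methods describe strand-specific libraries, but the strand setting of the quantification is not given in the sources used here. Reads of the overlap could therefore have been shared. Of the 468 to 848 counts per library, the transcript spanning the whole annotated gene took 0 to 14.7. A processed transcript near the gene's far end took 0 to 1, and the other Dusp1 transcripts ended far short of it. The effect of the overlap on Dusp1 was not tested.

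Dusp5 (chr19:53529109-53542431, + strand) encodes a nuclear phosphatase that is selective for ERK. Its log2 CPM was 1.45, 1.01, 1.15 and 0.96 in CTRL 1 to 4, and 1.40, 1.62, 1.25, 0.89 and 0.63 in Emul 1 to 5. The Emul libraries thus reached both above and below all CTRL libraries. With a log2 fold change of 0.02 and a 95% confidence interval of -0.41 to 0.45, a difference within that interval could not be detected here. The SD was 0.221 in CTRL and 0.396 in Emul, on 54 to 125 counts per library.

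Dusp6 (chr10:99263231-99267489, + strand) encodes the cytoplasmic phosphatase that is selective for ERK. Its log2 CPM was 3.96, 3.92, 3.92 and 3.96 in CTRL 1 to 4, and 3.91, 4.03, 4.12, 4.09 and 4.03 in Emul 1 to 5. All Emul libraries except Emul 1 lay above the highest CTRL library, and Emul 1 lay below the lowest. The log2 fold change was 0.10 (SE 0.0533), with an unadjusted p of 0.0989, an adjusted p of 0.409 by limma-voom and an exact permutation p of 0.0794. Without Emul 1 it was 0.13 at an unadjusted p of 0.0256.

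Spry4 (chr18:38586247-38601415, - strand) had the lowest p of the 9 genes. It encodes a Sprouty protein that holds back the activation of Ras and RAF by receptors. Its log2 CPM was 4.26, 4.10, 4.31 and 4.10 in CTRL 1 to 4, and 3.92, 4.15, 3.97, 3.80 and 3.80 in Emul 1 to 5. Only Emul 2 lay within the CTRL range, and the other 4 Emul libraries lay below it. The log2 fold change was -0.25 (SE 0.0776), a level 1.19-fold lower, with an unadjusted p of 0.00645, an adjusted p of 0.176 by limma-voom and an exact permutation p of 0.0317.

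Spry1 (chr3:37639947-37644598, + strand) and Spry2 (chr14:105891947-105896819, - strand) encode Sprouty proteins that are tyrosine-phosphorylated after growth factor stimulation. Spry1 log2 CPM was 3.47, 3.54, 3.47 and 3.50 in CTRL 1 to 4, and 3.59, 3.63, 3.49, 3.32 and 3.38 in Emul 1 to 5. Spry2 log2 CPM was 3.87, 3.83, 3.92 and 3.91 in CTRL 1 to 4, and 3.98, 4.14, 3.84, 3.79 and 3.80 in Emul 1 to 5. In both genes Emul 1 and Emul 2 lay above all CTRL libraries and Emul 4 and Emul 5 below them. The SD was 0.0354 in CTRL and 0.133 in Emul for Spry1, and 0.0428 and 0.151 for Spry2. The log2 fold changes were -0.01 for Spry1 (95% confidence interval -0.17 to 0.14) and 0.03 for Spry2 (-0.13 to 0.20), with adjusted p of 0.952 and 0.860 by limma-voom.

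Spred1 (chr2:117121374-117182279, + strand) and Spred2 (chr11:19924375-20024026, + strand) were measured most precisely. Between 4901 and 8017 counts per library lay on Spred1, the SPRED gene whose loss in people causes Legius syndrome. Its log2 CPM was 7.44, 7.42, 7.42 and 7.32 in CTRL 1 to 4, and 7.47, 7.41, 7.36, 7.47 and 7.54 in Emul 1 to 5. CTRL 4 was the lowest library and Emul 5 the highest, and the groups overlapped. Spred2, with 1787 to 2759 counts, was at 6.03, 5.96, 5.97 and 5.96 log2 CPM in CTRL 1 to 4 and at 5.96, 5.98, 5.91, 5.93 and 6.04 in Emul 1 to 5. The 95% confidence intervals of the log2 fold changes were -0.04 to 0.13 for Spred1 and -0.09 to 0.06 for Spred2, with adjusted p of 0.587 and 0.873 by limma-voom.

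**Figure D3:**
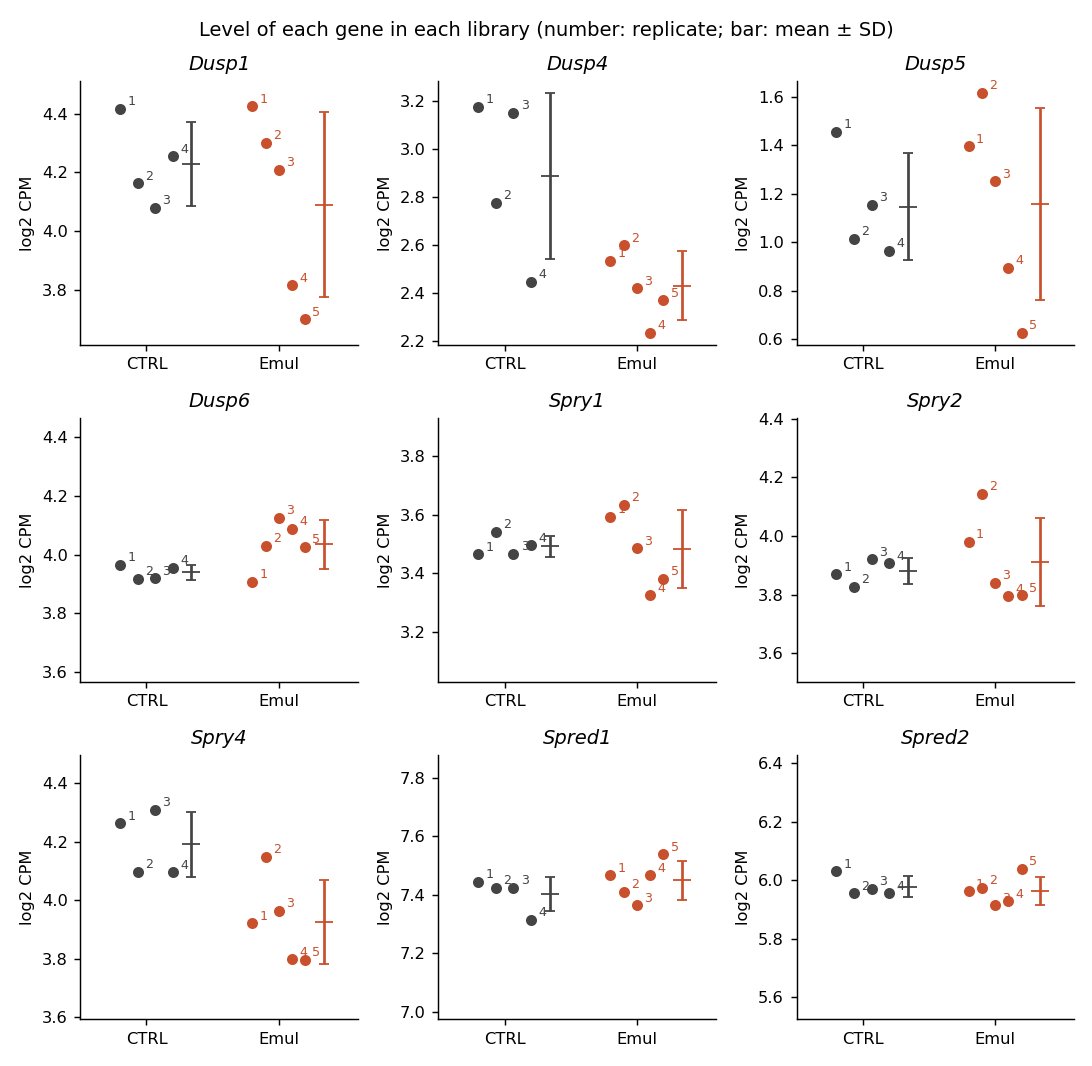
Log2 CPM of each of the 9 genes in every library, 1 panel a gene, with CTRL and Emul points, group means and SD. Most Emul points of Dusp4 and Spry4 lie below the CTRL points, Emul is more spread than CTRL for Spry1 and Spry2, and the panels of Spred1 and Spred2 show little spread in either group.

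Summed levels can hide a change in which transcript is used. Dusp4, Dusp5, Spry2 and Spry4 each had 1 annotated transcript, so this question could be asked of Dusp1, Dusp6, Spry1 and Spred2, which had at least 2 transcripts with over 5% of the counts. The main Spred2 transcript, Spred2-202, took 79.8% ± 2.45 (SD, n = 4) of the counts in CTRL and 80.3% ± 0.641 (n = 5) in Emul, with an exact permutation p of 0.683. Spry1-201 took 53.3% ± 18.6 in CTRL and 55.4% ± 7.51 in Emul (exact permutation p = 0.825). The share of Spry1-201 ran from 30.3% to 73.4% within CTRL alone. Dusp1-202 took 67.3% ± 4.04 in CTRL and 67.1% ± 8.27 in Emul (exact permutation p = 0.960).

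For Dusp6, the full-length coding transcript Dusp6-201 took 91.2% ± 3.21 of the counts in CTRL and 88.3% ± 1.54 in Emul (exact permutation p = 0.127). Most of the remainder lay on Dusp6-203, a transcript of 876 bases annotated as processed and not as coding. It took 5.27% to 9.50% of the counts in CTRL and 8.09% to 12.4% in Emul, on only 28.0 to 83.6 counts per library. In a limma-voom fit to 49604 transcripts the log2 fold change was 0.61 for Dusp6-203 (SE 0.225, unadjusted p 0.0227, adjusted p 0.448) and 0.06 for Dusp6-201 (unadjusted p 0.379, adjusted p 0.781). Over all transcripts 4.47% were higher and 5.45% lower at an unadjusted p under 0.05, and 0 passed after adjustment. With protein-coding transcripts alone the log2 fold change of Dusp6 was 0.04. Since TPM weights short transcripts more, Dusp6-203 made up 22.3% of the gene's TPM in CTRL and 29.3% in Emul.

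**Figure D4:**
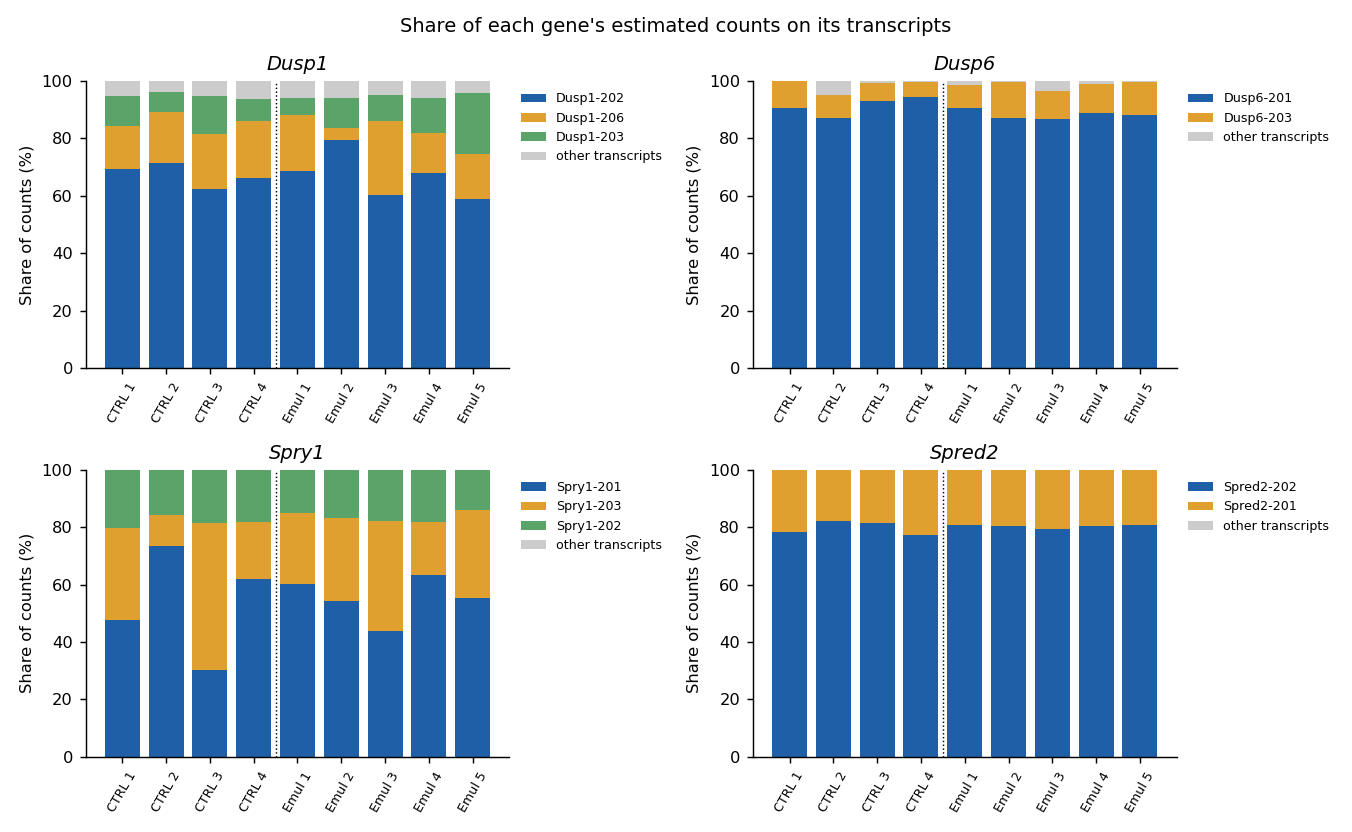
Share of each gene's estimated counts (percent) on its transcripts in every library, for the 4 genes with at least 2 transcripts above 5%. Spred2 shares are nearly constant, Spry1 shares vary widely between libraries of 1 group, and the small Dusp6-203 share is somewhat larger in Emul.

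The 9 genes were then compared with each other across libraries, with the mean of each group subtracted. These correlations describe 9 libraries that share depth and dissection differences, and no test was made. Of the 36 pairs, 13 had a Pearson r above 0.5 and 1 had an r below -0.5, with a median of 0.177. Dusp1 and Dusp5 were the most alike (r = 0.884), followed by Dusp5 and Spry4 (0.849), Spry1 and Spry2 (0.825), and Dusp1 and Spry1 (0.800). Dusp4 was nearest to Spry4 (0.752). Spred1 and Spred2 went together (0.695), and Dusp6 was lowest against Spry1 (-0.50). Within Emul the like genes shared an order, in which Emul 1 and Emul 2 were higher than Emul 4 and Emul 5 for Dusp1, Dusp4, Dusp5, Spry1, Spry2 and Spry4.

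**Figure D5:**
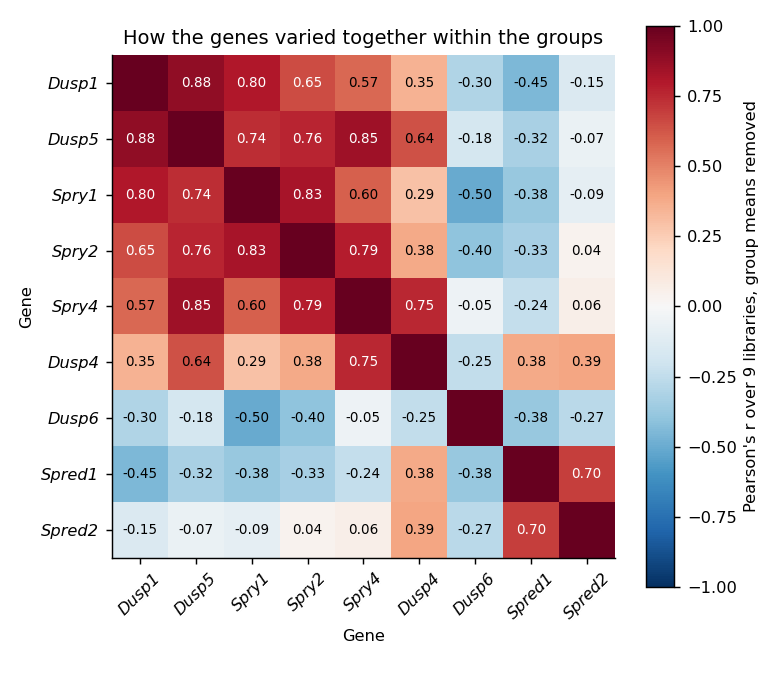
Pearson r of log2 CPM between the 9 genes over 9 libraries after subtraction of the group means (colour scale from -1 to 1). A block of positive values links Dusp1, Dusp4, Dusp5, Spry1, Spry2 and Spry4, while Dusp6 is negative against all 8 other genes and Spred1 and Spred2 are positive with each other.

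The 14 neuronal immediate early genes tested, such as Fos, Egr4, Ier2 and Btg2, were compared with the 9 genes in the same way, as were the cell type markers. The median within-group r with them was 0.683 for Spry1, 0.673 for Dusp5, 0.579 for Spry4, 0.571 for Spry2, 0.538 for Dusp1 and 0.368 for Dusp4. It was -0.31 for Dusp6, -0.37 for Spred1 and -0.39 for Spred2. The highest single values were 0.876 between Spry1 and Fos and 0.876 between Dusp1 and Ier2. Dusp1 and Ier2 are both induced within minutes of a stimulus in many cell types. Markers of regions and cell types reached medians of similar size. The median r with the 5 thalamus markers was 0.591 for Spry1, 0.520 for Dusp1, -0.62 for Spred1 and -0.58 for Spred2. With the 8 markers of MBH neurons tested it was 0.677 for Spred2, and with the 7 astrocyte markers it was -0.57 for Dusp1. The part of dissection and cell content in the shared variation was not tested.

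Among all tested genes with a mean log2 CPM of at least 3, the 3 with the highest within-group r over the 9 libraries were named for each gene. For Dusp1 they were Pofut2 (r = 0.960), Hdac5 (0.947) and 1600012H06Rik (0.946), and 1600012H06Rik (0.974) also headed the list for Dusp5, before Lpcat4 and Zfp90. For Dusp4 they were Mrps22 (0.930), Fcf1 and Daxx, and for Dusp6 Col4a2 (0.980), Kdm3b and Tdrd3. Spry1 was most like Pdzd11 (0.971), Arf6 and Taf3, Spry2 like Smyd5 (0.974), Rpl27 and Actr5, and Spry4 like Xpa (0.977), Txndc9 and Dnajb9. Spred1 was most like Fyttd1 (0.958), Glra2 and Htr1a, and Spred2 like Pak1 (0.973), Elovl4 and Ppp3r1.

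The promoters of Dusp1 and Dusp5 are shown because these 2 genes were the most alike across libraries. Promoter windows from 250 bases before to 50 after the start site were read from the RefSeq table of GRCm38.p6, the build also called mm10, and 7 of the 9 genes had one, all except Dusp4 and Spry4. Both strands were searched for the cAMP response element, spelled TGACGTCA, and for the ETS element, spelled CCGGAAGT. The AP-1 element was taken as TGANTCA. The GC box was taken as GGGCGG, also on both strands. The TATA box was taken as TATAAA, on both strands like the others. The CArG box, the element of serum response factor, was searched by its usual definition, and none of the motifs overlapped another in these windows. The 250 bases before the start are printed 5′ to 3′, with the cAMP response element in capitals for Dusp1 (chr17:26508473-26508722, - strand) and the pair of adjoining CArG boxes in capitals for Dusp5 (chr19:53528895-53529144, + strand).
Dusp1: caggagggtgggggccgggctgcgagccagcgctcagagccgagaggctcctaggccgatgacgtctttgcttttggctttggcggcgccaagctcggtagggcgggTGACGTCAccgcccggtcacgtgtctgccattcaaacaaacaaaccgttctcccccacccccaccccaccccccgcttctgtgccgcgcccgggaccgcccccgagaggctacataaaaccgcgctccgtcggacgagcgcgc
Dusp5: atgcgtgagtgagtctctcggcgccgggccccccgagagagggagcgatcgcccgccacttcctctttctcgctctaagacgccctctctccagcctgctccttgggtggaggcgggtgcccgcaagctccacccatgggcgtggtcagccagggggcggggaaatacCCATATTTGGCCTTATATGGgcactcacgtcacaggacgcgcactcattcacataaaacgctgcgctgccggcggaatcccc

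The Dusp1 window held 1 cAMP response element, at -143, and 3 GC boxes, and the Dusp5 window held 2 CArG boxes, at -82 and -72, and 1 GC box. The cAMP response element was in 1.79% of all 32851 promoter windows and the CArG box in 1.63%, and neither was in the windows of Dusp6, Spry1, Spry2, Spred1 or Spred2. GC boxes, in 35.7% of all windows, were found in those of Spry1, Spred1 and Spred2. The AP-1, ETS and TATA elements, in 7.81%, 3.89% and 13.6% of all windows, were in none of the 7. Of the elements searched, only the GC box was found in the windows of both Dusp1 and Dusp5. Near matches were not counted, and the part of promoter elements in the shared variation of these genes was not tested. A match describes letters and not a bound site.

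Of the other phosphatases of MAP kinases, Dusp2, Dusp7, Dusp8, Dusp9, Dusp10 and Dusp16 were all tested. Dusp16, which acts mainly on JNK and p38, lay at 4.47 to 4.63 log2 CPM in CTRL and at 4.26 to 4.42 in Emul, without overlap. Its log2 fold change was -0.19 (SE 0.0490, adjusted p 0.137 by limma-voom). Dusp7, a cytoplasmic ERK phosphatase like Dusp6, had a log2 fold change of -0.13 (unadjusted p 0.0477, adjusted p 0.309 by limma-voom), and that of Dusp2 was 0.47 (unadjusted p 0.136). The other Sprouty and SPRED genes are Spry3 and Spred3. Spry3 lay at 3.67 to 3.76 log2 CPM in CTRL and at 3.40 to 3.63 in Emul, which limma-voom put at -0.21 on the log2 scale (SE 0.0609, adjusted p 0.161), and that of Spred3 was -0.04. Counted together, 5 of these 17 phosphatase, Sprouty and SPRED genes (29.4%) were lower at an unadjusted p under 0.05, 0 were higher and 0 passed after adjustment, beside 8.99% lower and 6.84% higher over all genes tested. Their median log2 fold change was -0.04.

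Other genes known to be induced by ERK were counted in the same way, against 8.99% lower and 6.84% higher over all genes tested. Of 14 listed, 13 could be tested, 5 were lower at an unadjusted p under 0.05 and 0 were higher, and their median log2 fold change was -0.14. Fos, the AP-1 subunit, lay at 4.83 to 5.25 log2 CPM in CTRL and at 3.63 to 4.83 in Emul (log2 fold change -0.69, adjusted p 0.169 by limma-voom). Fosl2, its relative, had a log2 fold change of -0.60 (adjusted p 0.102) and Phlda1 one of -0.30 (adjusted p 0.138), both by limma-voom. In the list of neuronal immediate early genes, which shares Fos, Egr1 and Ier2 with this one, 7 of 14 were lower and 0 higher, with a median of -0.29. Jun, the partner of Fos, was the only gene of these pathway lists past adjustment, with a log2 fold change of -0.30 (adjusted p 0.0246 by limma-voom), ahead of Nr4a3 (-1.03, adjusted p 0.0916) and Nr4a1 (-0.69, adjusted p 0.146).

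The kinases of the cascade differed little between the groups. Their counts stand beside 8.99% lower and 6.84% higher over all genes tested. Of the 17 genes of the ERK core, 1 was lower and 1 higher at an unadjusted p under 0.05, with a median log2 fold change of -0.02, and the 2 were Nras (-0.13, adjusted p 0.194) and Braf (0.07, adjusted p 0.305), both by limma-voom. Map2k2, which encodes MEK2, was at -0.08 (unadjusted p 0.0720). Of 12 tested genes of the JNK, p38 and ERK5 branches, 1 was lower and 1 higher, with a median of 0.02. These were Map2k3 (-0.19, unadjusted p 0.0176), a kinase of p38, and Mapk9 (0.07, unadjusted p 0.0358), which encodes JNK2, while Mapk8, encoding JNK1, was at 0.08 (unadjusted p 0.0563). Of 10 other feedback inhibitors of receptor signalling, 0 differed at that level, with a median of -0.01. Il17rd (-0.13, unadjusted p 0.148), Socs3 (0.21, unadjusted p 0.169) and Dab2ip (0.05, unadjusted p 0.187) came nearest.

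Among 10 genes whose products bind Sprouty or SPRED proteins, 1 was lower and 1 higher at an unadjusted p under 0.05. Over all genes tested the shares were 8.99% and 6.84%. Some of the 10 genes were also counted in the ERK core or among the feedback inhibitors. Siah2, a ubiquitin ligase that targets Sprouty proteins, lay at 3.68 to 3.82 log2 CPM in CTRL and at 3.18 to 3.60 in Emul (log2 fold change -0.35, adjusted p 0.103 by limma-voom). Dyrk1a, a kinase of Sprouty proteins, lay at 6.39 to 6.46 in CTRL and at 6.50 to 6.62 in Emul (0.13, adjusted p 0.158 by limma-voom). Cav1 was at -0.13 (unadjusted p 0.107).

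Upstream of the cascade, 3 of 15 tested receptor tyrosine kinases were lower at an unadjusted p under 0.05 and 1 was higher, with a median log2 fold change of -0.05. This stands beside 8.99% lower and 6.84% higher over all genes tested. Erbb3, a neuregulin receptor, lay at 5.07 to 5.24 log2 CPM in CTRL and at 4.31 to 4.89 in Emul, which limma-voom put at -0.53 on the log2 scale (SE 0.0937, adjusted p 0.0569). Fgfr2, a receptor for fibroblast growth factors, was at -0.24 (adjusted p 0.112) and Erbb2 at -0.22 (adjusted p 0.267), both by limma-voom. Of 16 tested ligands, 1 was lower and 2 were higher, with a median of -0.02. Tgfa, a ligand of the EGF receptor, was at -0.21 (adjusted p 0.189), Nrg3, a neuregulin, at 0.13 (adjusted p 0.173) and Bdnf, the ligand of TrkB, at 0.31 (adjusted p 0.212), all by limma-voom.

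Cell type markers and the mitochondrial share also differed between the groups in which Dusp4 and Spry4 differed. Within groups, the median r over the 8 oligodendrocyte markers was 0.169 for Dusp4 and 0.255 for Spry4, and over the 7 astrocyte markers it was -0.25 for Dusp4 and -0.0038 for Spry4. Aqp4, the astrocyte water channel, had the lowest r of those 7, at -0.82 with Dusp4 and -0.63 with Spry4. Gfap, another astrocyte marker, had the highest, at 0.33 with Dusp4 and 0.24 with Spry4. With the markers of oligodendrocyte precursors, the median r was 0.44 for Dusp4 and 0.12 for Spry4. The values ran from 0.12 (Olig2) to 0.63 (Sox10) for Dusp4 and from -0.10 (Cspg4) to 0.56 (Sox10) for Spry4. Over the 9 libraries, summed oligodendrocyte markers were lowest in Emul 5 (9258 TPM) and summed astrocyte markers in Emul 3 (1747 TPM), while the mitochondrial share was highest in Emul 2 (6.75%). The part of oligodendrocyte, oligodendrocyte precursor and astrocyte content, and of the mitochondrial share, in the differences of Dusp4 and Spry4 was not tested.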

How the data were processed

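RNA had been sequenced from the MBH of 9 male mice, 4 CTRL and 5 Emul, grouped by the sample labels. Per the submitters' processing notes, FastQC 0.11.9, kallisto 0.46.1, edgeR 3.40.1 and the build mm10 were used. The authors deposited kallisto's estimated counts and TPM for each transcript and library, neither scaled between libraries, with transcript lengths, and a table of log2 CPM values made by the authors for 14593 rows (1 row without a gene name was left out). The strand setting and annotation release are not given in the sources used here.

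Transcripts were matched to GENCODE M21 (97.8% matched), unmatched ones (1.20% to 1.27% of the counts) were left out, and estimated counts and TPM were summed per gene. Genes with CPM above 1, or transcripts with CPM above 0.5, in at least 4 libraries were tested with limma-voom (limma 3.58.1, edgeR 4.0.16, R 4.3.3) after TMM scaling, without covariates, and p-values were adjusted over all features tested. Single-library log2 CPM used a prior count of 2. Group means were also compared by two-sided exact permutation tests over all 126 splits (scipy 1.17.1). With 28245360 to 46067534 counts per library, precision was taken from the spread between libraries. Also tried were DESeq2 (1.42.0) and edgeR's quasi-likelihood test, both on rounded counts, limma-trend, sample quality weights, other scalings and filters, lengthScaledTPM, protein-coding transcripts, the authors' table, a replicate block and each library left out. The tests were checked on simulated data. The 9 genes and the lists were chosen with earlier results of these data known. From each list the 3 genes with the lowest unadjusted p and any with an adjusted p under 0.05 were named, and for each of the 9 genes the 3 with the highest within-group r.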

Additional observations from a re-analysis of the deposited data

Results flagged for a closer look

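The log2 CPM of Spred1 in CTRL 4 was 7.32, apart from the other CTRL libraries, which lay at 7.42 to 7.44. The gap was 0.837 of the group's range, against a critical ratio of 0.829 for 4 samples. Of 106 groups of values examined, this was the 1 past the critical ratio, and chance alone gives about 1 in 20.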

How the results depend on the processing

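Dusp4 and Spry4 were lower in Emul at an unadjusted p under 0.05 in all 23 settings, with highest p of 0.0458 and 0.0228. Their adjusted p ranged from 0.0462 to 0.362 and from 0.0661 to 0.353, and the 1 value under 0.05 was that of Dusp4 by DESeq2. Without 1 library the log2 fold changes were -0.60 to -0.33 for Dusp4 and -0.31 to -0.22 for Spry4. In the authors' table their log2 fold changes were -0.46 and -0.27. Their exact tests missed 0.05 in 8 settings each that left out a library. The count of genes with an adjusted p under 0.05, 18 by limma-voom, was 33 by edgeR, 341 by DESeq2, 8 by limma-trend, 36 with sample quality weights, 10 with median-of-ratios size factors, 60 with library size alone, 6 without mitochondrial genes, 5 without a filter, 10 with filterByExpr, 6 with lengthScaledTPM, 10 with protein-coding transcripts, 5 in the authors' table and 0 to 24 without 1 library. Genes with an unadjusted p under 0.05 and a change above 1.5-fold, 72 in all, were 688 without a filter, 185 with filterByExpr and 50 to 96 without 1 library. With library size alone 2248 genes were lower and 517 higher at an unadjusted p under 0.05, against 1379 and 1049, and the median of all genes was -0.03. Among the 9 genes, Dusp6 was higher at an unadjusted p under 0.05 with lengthScaledTPM (a log2 fold change of 0.20, limma-voom across all genes, 1 gene), and 0 to 1 genes were higher without 1 library. The log2 fold change of Dusp5 was -0.0097 with library size alone. On log2 TPM, which carries the shift of all genes, the differences were -0.086 for Dusp5, -0.056 for Spred1, -0.071 for Spry2 and -0.12 for Spred2 (exact permutation p = 0.0159 for Spred2). The Dusp6-201 share differed by -7.88 points as a share of TPM (exact permutation p = 0.0238). Without 1 library the log2 fold changes ranged from -0.10 to 0.14 for Dusp5, -0.033 to 0.0032 for Spred2, -0.053 to 0.035 for Spry1 and -0.026 to 0.071 for Spry2, the differences in mean log2 CPM from -0.10 to 0.14, -0.033 to 0.0033, -0.047 to 0.031 and -0.027 to 0.060, and the main transcript shares from -3.25 to 1.90 points for Dusp1, -0.393 to 1.28 for Spred2 and -5.61 to 8.76 for Spry1.

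The replicate numbers did not pair the libraries, since deviations of same-numbered libraries correlated at -0.163, -0.015, 0.021 and -0.055. With a replicate block 1 gene had an adjusted p under 0.05, Dusp4 was at -0.45, Spry4 at -0.23 and Spry1 at 0.017, and no other of the 9 genes changed direction or call.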
